A study of Macaca mulatta with 252 samples.

Results

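P2RY12 and CD53 are a pair of genes used as markers of microglia, and their levels are described here across 57 laser-captured regions of the rhesus macaque brain. Both were found by symbol among the 14133 genes of the array annotation, and each was read from its probe set with the highest mean, which is MmugDNA.13354.1.S1_at for P2RY12 (Entrez gene 710036) and MmuSTS.3532.1.S1_at for CD53 (Entrez gene 702350). The RefSeq gene list places P2RY12 on macaque chromosome 2 and CD53 on chromosome 1. The study set out to compare cortical areas, cortical layers and some subcortical structures by their RNA.

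The experimental arrays came from 6 adult macaques, of which A, B and C were male and the 3 others, D to F, female. No treatment or genotype is named for any group. Each group was a layer of a cortical area, a hippocampal field or a division of the dorsal lateral geniculate nucleus (LGN, the thalamic relay of vision), and held 1 array per animal from 4 animals, or from only 3 in layer 2 of M1 and in A1 at layers 4 and 5. The 10 cortical areas were the anterior cingulate gyrus (ACG), the dorsolateral (DLPFC) and orbital (OFC) parts of prefrontal cortex, the primary auditory (A1), visual (V1), somatosensory (S1) and motor cortex (M1), the secondary visual area (V2), the middle temporal area (MT) and the temporal area TE. ACG, OFC and M1 had no layer 4 group, and V1 had its layer 4 divided into 4A, 4B, 4Ca and 4Cb. The hippocampus gave the fields CA1, CA2 and CA3 and the dentate gyrus (DG), and the LGN gave its magnocellular, parvocellular and koniocellular divisions.

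Microglia are the resident macrophages of the brain. P2RY12 is a G protein-coupled receptor for ADP, and microglia use it to sense nucleotides released by other cells and to direct their processes toward them; its level is known to drop when they become reactive. CD53 is a tetraspanin, from a family of proteins that cross the membrane several times and organise other proteins at the cell surface, and it is known from white blood cells as well as from microglia. In pieces of tissue, fewer cells of a type and less RNA per cell cannot be told apart.

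All levels are normalized intensities on the log2 scale, on which a difference of 1 is a doubling, and levels of different probe sets are not compared with each other. Calling a gene took an adjusted p under 0.05 from limma, with the animal as a block, together with a log2 change of 1 or more; for a test over several levels at once, the range of the fitted means took the place of the change. Array medians lay between 4.72 and 5.00. P2RY12 had a mean of 7.78 over the experimental arrays, above 84.7% of probe sets, and CD53 a mean of 6.59, above 75.2%. Arrays deviated from their group means more alike within an animal than between animals, with a median correlation of 0.174 over 5367 pairs against -0.0493 over 19500 pairs.

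By correlation over the group means, the label of microglial genes fitted P2RY12 better than CD53. Of a list of 37 microglia genes, 28 were measured, and 18 besides P2RY12 and CD53 lay above the median of all probe sets, which was 4.76. Over the 57 group means, these 18 had a median Pearson correlation of 0.49 with P2RY12, with a range of -0.52 to 0.84, against a median of 0.08 over all 10300 genes compared. With CD53 their median correlation was -0.02, with a range of -0.23 to 0.35, against 0.03 over all genes. Other lists had medians above that of all genes with P2RY12 too. The median was 0.38 for 6 endothelial genes and 0.32 for 7 genes of survival ligands and neuron-microglia signals. The remaining lists lay between -0.11 for myelin genes and 0.22 for purine signalling partners. These are descriptions over group means that share animals and amplification runs, and they carry no p. The genes nearest to P2RY12 on the list, named after their values were seen, were the complement subunits C1QA (0.84) and C1QB (0.79), LY86 (0.78), the fructose transporter SLC2A5 (0.72), the microglial signalling adaptor TYROBP (0.71) and SELPLG (0.71). Not every defining marker followed it: TMEM119, a surface protein of resident microglia, had a correlation of -0.30, and the transcription factor IRF8 one of -0.52. CX3CR1, the fractalkine receptor, and PTPRC, the leukocyte antigen CD45, had means of 4.50 and 4.14, below the median of all probe sets. They were thus not among the 18, and their correlations with P2RY12 over the group means were 0.44 and 0.68. Over the deviations of arrays from their group means, the genes named as nearest to P2RY12 had lower correlations with it. These ran from -0.02 for SELPLG to 0.35 for SLC2A5. No microglia gene reached a correlation with CD53 above the 0.35 of the integrin subunit ITGAM. CD53 is therefore described below by its symbol, and its levels are not read as levels of microglia.

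**Figure D1:**
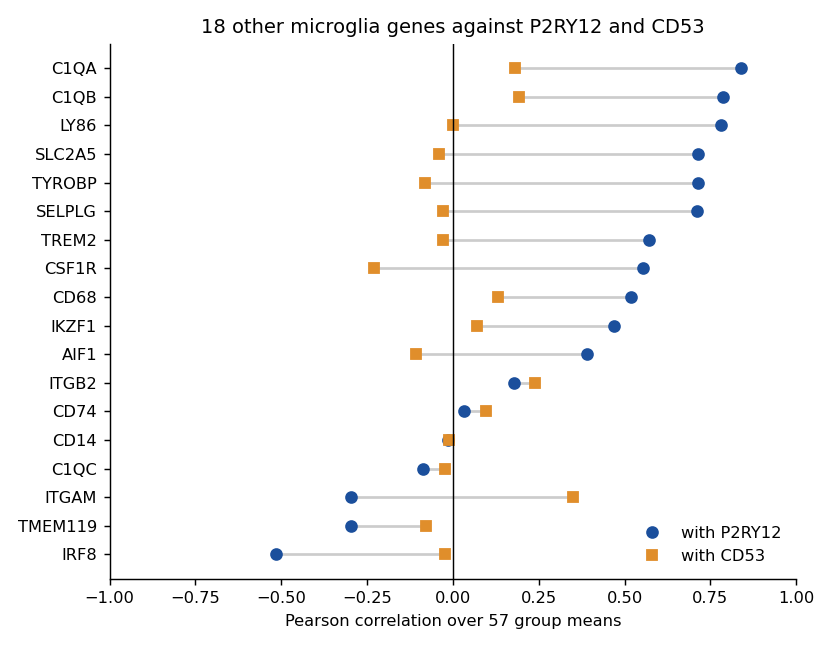
Pearson correlation over 57 group means (x axis) of 18 other microglia genes (y axis) with P2RY12 (circles) and with CD53 (squares). The circles run from -0.52 for IRF8 to 0.84 for C1QA, and the squares lie between -0.23 and 0.35.

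P2RY12 and CD53 themselves followed different maps. Their group means had a correlation of 0.15 over 57 groups, the deviations of the arrays from their group means one of 0.15, and the 37 cortical groups outside V1 and V2 one of 0.02. Of the variance of P2RY12 over 158 arrays of layers 2, 3, 5 and 6, area held 54.7% and layer 0.67%. For CD53 the order was turned around, with 11.7% held by area and 58.7% by layer. For the median gene among 10294, area held 18.5% and layer 6.18%. The animal held 14.5% for P2RY12 and 5.24% for CD53.

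**Figure D2:**
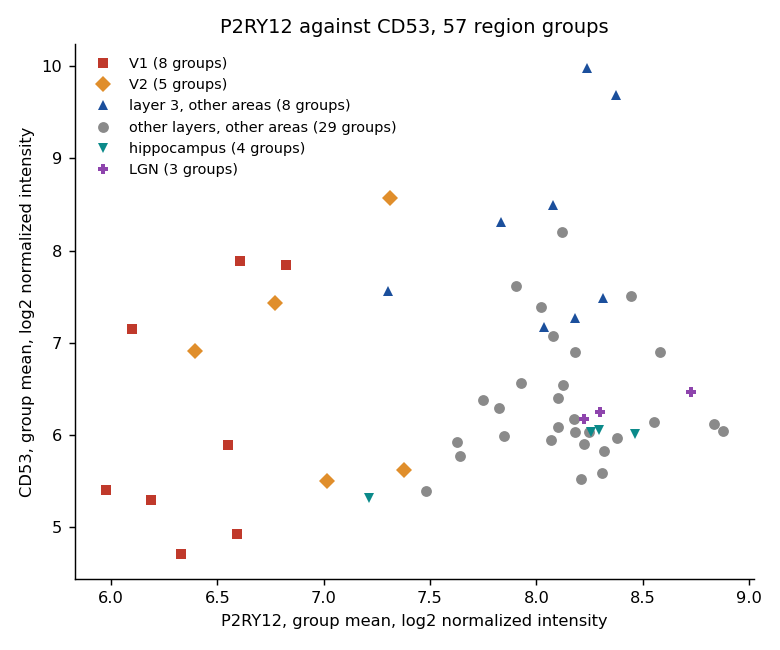
Group mean of P2RY12 (x axis) against group mean of CD53 (y axis), both as log2 normalized intensity, for 57 region groups marked by area or structure. The groups of V1 and V2 lie to the left, with P2RY12 means up to 7.38. The layer 3 groups lie toward the top, each with a CD53 mean of at least 7.17. Some groups of other layers lie among them, such as layer 4 of DLPFC (8.20) and layer 4A of V1 (7.85).

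P2RY12 was lowest in the early visual areas and high nearly everywhere else. The 32 arrays of V1 ran from 5.25 over a median of 6.35 to 7.45, the 20 of V2 from 5.20 over 7.32 to 8.24, and the 145 arrays of the other 8 cortical areas from 6.59 over 8.15 to 9.37. Of the V1 arrays 17 lay below the lowest array of the other 8 areas, and of the V2 arrays 6 did, so the groups overlapped in part. In the order of the 57 group means, the 8 groups of V1 took places between 48 and 57 and the 5 groups of V2 places between 43 and 53. Of the 10 lowest groups 8 were from V1. Of the 37 other cortical groups, 1 lay among those places, layer 3 of M1 at place 45 with 7.30 ± 0.73 (SD, n = 4), and DG stood at place 46.

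**Figure D3:**
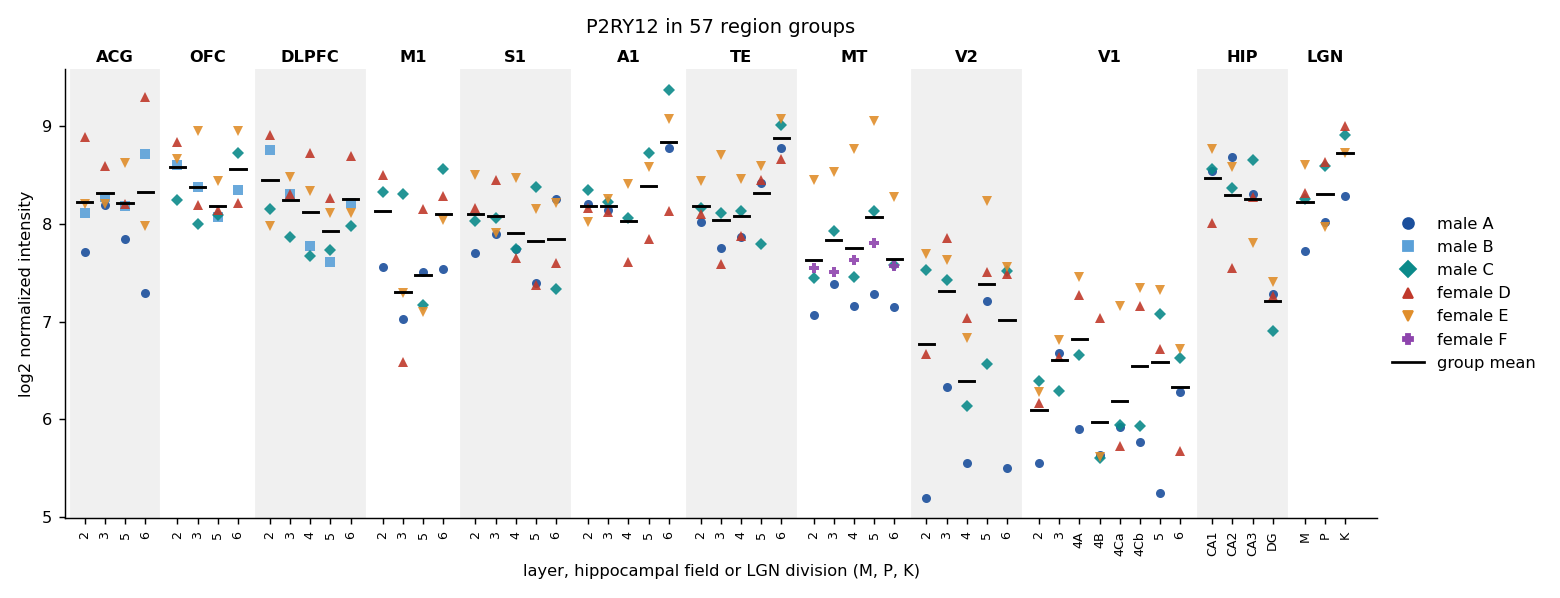
P2RY12 level of each experimental array (y axis, log2 normalized intensity) in 57 region groups (x axis, layer, hippocampal field or LGN division within each area), with 1 symbol per animal and a bar for the group mean. The arrays of V1 lie between 5.25 and 7.45, and those of TE layer 6, the highest group, between 8.66 and 9.07.

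The lowest group was layer 4B of V1. Its arrays read 5.64 in male A, 5.61 in male C, 7.04 in female D and 5.62 in female E, so that 1 animal stood well above the other 3. Layer 2 of V1 followed with 6.10 ± 0.38, then layer 4Ca with 6.19 ± 0.66 and layer 6 with 6.33 ± 0.47 (SD, n = 4 each). At the other end stood layer 6 of TE, a high-order visual area, with 8.78 in male A, 9.01 in male C, 8.66 in female D and 9.07 in female E. Next came layer 6 of A1 with 8.84 ± 0.53 and the koniocellular division of the LGN with 8.73 ± 0.32 (SD, n = 4 each). Between these ends the order was smooth. None of the 56 gaps between neighbouring groups exceeded the pooled within-group SD of 0.52, and the largest gap was 0.20, so no group differed from its neighbour in the order beyond the spread of arrays.

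The low level in V1 was found in each of the 4 animals measured there. Averaged over layers 2, 3, 5 and 6, V1 stood at 5.94 in male A, 6.60 in male C, 6.30 in female D and 6.79 in female E. The same average in V2 was 6.06 in male A, 7.26 in male C, 7.38 in female D and 7.78 in female E. V1 thus lay below V2 in 4 of 4 animals, and male A was the animal in which they came closest. The means of the other areas ran from 7.79 ± 0.35 in M1 (SD, n = 3) and 7.79 ± 0.57 in MT to 8.35 ± 0.23 in TE and 8.42 ± 0.22 in OFC (SD, n = 4 each), with 8.40 ± 0.31 in A1 (SD, n = 3). The LGN, at 8.42 ± 0.29, was in the range of the higher areas. The hippocampus, at 8.06 ± 0.19 (SD, n = 4 animals each), lay between S1 (7.96) and DLPFC (8.21).

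Across the 10 areas the fitted means of P2RY12 spanned 1.95 and were called (limma adjusted p = 5.52e-09), as were 9.2% of the 10286 genes tested. Against the other areas together V1 was lower by 3.03-fold, with a log2 change of -1.60 ± 0.14 (SE, adjusted p = 3.29e-10), where 1.2% of genes were called in either direction. V2 was lower by 0.81 ± 0.14 (SE, adjusted p = 4.05e-05), a change under the size asked of a call. TE (0.56, adjusted p = 0.00839), OFC (0.48, adjusted p = 0.0177) and ACG (0.46, adjusted p = 0.0152) were higher and were likewise not called, while DLPFC, A1, S1, M1 and MT did not pass the test. In pairs of areas V1 was called lower than each of ACG, OFC, DLPFC, M1, S1, A1, MT and TE, by -1.48 against MT at the least and -1.95 against TE at the most. The difference between V1 and V2 was -0.71 ± 0.18 (SE, adjusted p = 0.007) and was not called. V2 in turn was called lower than ACG, OFC, A1 and TE. Over all pairs of areas together, 1.07% of the tests of all genes gave a call.

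The step at V1 was seen in each layer that V1 shares with the other areas. It was -1.90 ± 0.22 in layer 2 (adjusted p = 1.39e-07), -1.35 ± 0.21 in layer 3 (1.68e-05), -1.36 ± 0.24 in layer 5 (1.35e-04) and -1.81 ± 0.26 in layer 6 (8.52e-06), each with its SE from limma. All 4 were called, while the shares of all genes called lower in these layers were 3.13%, 1.83%, 1.87% and 2.23%. Within V1 the 8 layers spanned 0.85 and did not pass the test (adjusted p = 0.415), whereas 14.7% of genes were called there. The difference between deep layers (5 and 6) and upper layers (2 and 3) in V1, less the same difference in the other areas, was 0.01 ± 0.19 (SE, adjusted p = 0.989, 4 animals).

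V1 and V2 also stood apart in technical measures. The poly-A controls, transcripts of known sequence added to the RNA before it is amplified, read 10.1 ± 0.57 in V1 (SD, 32 arrays) and 9.97 ± 0.67 in V2 (SD, 20 arrays), and had means between 8.60 and 9.44 in the other areas and structures. Over the 57 group means their level had a correlation of -0.78 with P2RY12. Among the arrays of V1 alone it was -0.44, among those of V2 -0.15 and among those of the other 8 cortical areas -0.19. With the poly-A level as a covariate, the change was -1.436 in V1 (adjusted p = 1.07e-04) and -0.67 in V2 (adjusted p = 0.0373). Within layers, the call was kept in layer 2 (-1.64) and layer 6 (-1.62) and was lost in layer 3 (-0.89, adjusted p = 0.0653) and layer 5 (-0.92, adjusted p = 0.0615). The cre hybridisation controls had means of 14.15 in V1 and 14.28 in V2, and between 13.77 and 14.05 elsewhere. Their SD within an array averaged 0.147 in V1 and 0.153 in V2, and between 0.186 and 0.232 elsewhere. The SD of the cre mean over the arrays of a region parts the regions into a narrow and a wide set. The narrow set held 6 areas (A1, ACG, M1, S1, TE and V1) and the wide set the rest. Which of the 3 amplification batches each array was in is not given in the sources used here. Within the narrow set V1 was lower than the other 5 areas by 1.75 (adjusted p = 1.11e-08). V1 also had the highest poly-A and cre means of that set. In V1 and V2 area and processing run together, so these fits cannot tell them apart. A technical part was not tested.

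A weaker probe set of P2RY12 had a mean of 4.52, below the median of all probe sets, and was not tested in the cortical comparisons. Its group means had a correlation of 0.57 with those of the main probe set. Its mean over the V1 groups was 4.13, against 4.56 over the other cortical groups, and its lowest group was layer 6 of V1 with 3.76. The gene MED12L spans P2RY12 in the RefSeq list, and its group means had a correlation of -0.07 with those of P2RY12.

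Other microglia genes were lower in V1 as well, by less. Of the 19 tested besides P2RY12 and CD53, 10 were lower and 2 higher at an adjusted p under 0.05 whatever the size, where 30.4% of all genes were lower and 14.3% higher. None of the 19 was called. Their median change was -0.23, against -0.06 for all genes. Named after their values were seen, SLC2A5 was lower by 0.89 ± 0.10, TYROBP by 0.82 ± 0.13, C1QB by 0.69 ± 0.10, SELPLG by 0.63 ± 0.09 and C1QA by 0.60 ± 0.08 (SE). IRF8 was higher by 0.68 ± 0.13 and ITGAM by 0.20 ± 0.08. Within layer 6, 3 of 18 other microglia genes tested were called lower in V1, TYROBP (-1.47), SLC2A5 (-1.30) and SELPLG (-1.15), where 2.23% of all genes were. Within layer 3, 1 of 19 was called higher, IRF8 (1.23), where 0.438% of all genes were. Averaged over its 26 measured genes without P2RY12 and CD53, the microglia list lay between 5.43 and 5.85 in V1, between 5.62 and 5.90 in V2 and between 5.60 and 6.20 in the other 8 areas.

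Lists for other cells moved in V1 too, and their part in the result was not tested. Of 6 endothelial genes tested, 5 were lower at an adjusted p under 0.05, with a median of -0.37; of 6 neuronal genes 4 were lower (median -0.18), and of 6 astrocyte genes 3 were lower and 1 higher (median -0.32), beside the 30.4% lower and 14.3% higher of all genes. All were under the size of a call. The mean level of the 8 measured endothelial genes lay between 5.35 and 6.17 in V1 and between 5.59 and 6.46 in the other 8 areas, that of the 6 neuronal genes between 9.44 and 10.5 and between 9.52 and 10.7, and that of the 6 astrocyte genes between 9.19 and 10.3 and between 9.51 and 10.7. All of these ranges overlapped.

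Among the genes that signal to or with P2RY12, the family of P2Y receptors had 6 measured members of 10, of which P2RY12 and P2RY6, a receptor for UDP, passed the filter in cortex. P2RY6 was lower in V1 by 0.22 and was not called. Of 7 genes for purine signalling partners that were tested, 2 were higher and 3 lower in V1 at an adjusted p under 0.05, each by less than the size of a call. Of 7 tested genes for survival ligands and neuron-microglia signals, 4 were lower in V1 by the same test. With 14.3% of all genes higher and 30.4% lower, nothing particular to these lists is read from the counts. IL34, a ligand of the receptor CSF1R on which microglia depend, was called lower in layer 3 of V1, by 1.35 ± 0.14 (SE, adjusted p = 2.83e-08), as were 1.83% of all genes.

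P2RY12 differed little between cortical layers. In the areas with all of layers 2 to 6 the fitted means of the layers spanned 0.36 (adjusted p = 0.00916), below the size of a call, where 6.61% of genes were called. Layer 6 was higher by 0.19 ± 0.07 (adjusted p = 0.0334) and layer 4 lower by 0.26 ± 0.07 (adjusted p = 0.00754) than the other layers (SE, 4 animals). Deep minus upper layers gave 0.03 ± 0.07 (SE, adjusted p = 0.735). The highest of layers 2, 3, 5 and 6 was layer 2 in 4 areas, layer 6 in 3, layer 5 in 2 and layer 3 in 1. TE alone among the 10 areas had deep layers above upper layers in each of its animals, by 0.49 ± 0.26 (SD, n = 4), and DLPFC alone had them below in each, with a difference of -0.25 ± 0.24 (SD, n = 4). Of all 38 cases, 1 per animal and area, 21 lay above 0 and 17 below, and this difference was not tested in single areas.

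CD53 had a laminar pattern instead, with its highest levels in layer 3. The 40 layer 3 arrays of the 10 areas ran from 5.87 over a median of 8.19 to 10.4. The 39 of layer 2 ran from 5.11 over 6.45 to 8.06, the 39 of layer 5 from 4.53 over 5.85 to 8.10 and the 40 of layer 6 from 4.24 over 5.93 to 6.82. Ranges over all areas overlapped, since areas differed. Within areas, layer 3 was the highest of layers 2, 3, 5 and 6 in 10 of 10, and the highest of all layers in 9 of 10, with A1 as the exception (7.39 in layer 4 and 7.27 in layer 3). Layer 3 groups took 7 of the 10 highest places among the 57 groups, and none stood below place 16.

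**Figure D4:**
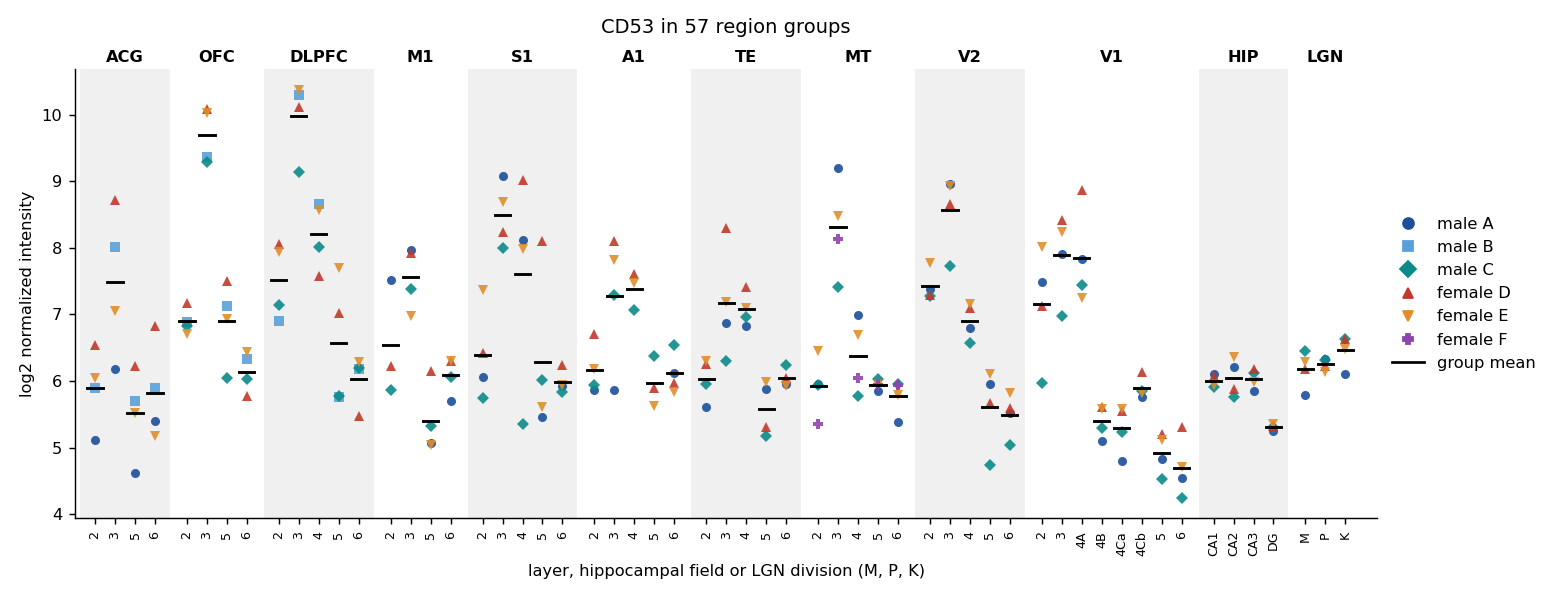
CD53 level of each experimental array (y axis, log2 normalized intensity, probe set with the highest mean) in 57 region groups (x axis, layer, hippocampal field or LGN division within each area), with 1 symbol per animal and a bar for the group mean. Layer 3 of DLPFC, between 9.13 and 10.4, and layer 3 of OFC, between 9.29 and 10.1, have the highest group means.

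Layer 3 of the prefrontal areas stood out. In DLPFC it read 10.3 in male B, 9.13 in male C, 10.1 in female D and 10.4 in female E, and in OFC 9.36 in male B, 9.29 in male C, 10.1 in female D and 10.0 in female E. Among the other groups the highest array was that of male A in layer 3 of MT, at 9.20, above the lowest array of DLPFC and below the lowest of OFC. The gap below OFC layer 3 was 1.13, the only gap of 56 above the pooled within-group SD of 0.57. Layer 3 of V2 (8.57 ± 0.57), S1 (8.50 ± 0.47) and MT (8.30 ± 0.75) followed, then layer 4 of DLPFC (8.20 ± 0.51), and these neighbours did not differ beyond the spread of their arrays (SD, n = 4 each). The lowest group was layer 6 of V1, with 4.54 in male A, 4.24 in male C, 5.31 in female D and 4.71 in female E. Of all experimental arrays, 6 read CD53 below the median of all probe sets, 4 of them from V1.

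Counted per animal and area, layer 3 exceeded the mean of layers 2, 5 and 6 in 38 of 38 cases, by 2.24 ± 0.78 on average (SD) and between 0.52 and 4.01. By area the difference was largest in DLPFC, at 3.28 ± 0.53, and OFC, at 3.05 ± 0.35, and smallest in TE, at 1.28 ± 0.81 (SD, n = 4 each). Deep layers lay below upper layers in 38 of 38 cases too. These cases come from 6 animals and are not independent of each other.

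In the fit over layers 2 to 6 the layer means of CD53 spanned 2.49 (adjusted p = 3.19e-10). Layer 3 was higher than the other layers by 3.78-fold, a log2 change of 1.92 ± 0.12 (SE, adjusted p = 1.60e-09), where 0.282% of genes were called higher. Layer 5 (-1.02 ± 0.12, adjusted p = 3.43e-06) and layer 6 (-1.20 ± 0.12, adjusted p = 2.02e-07) were called lower, as were 0.311% and 0.681% of genes. The layer 5 call was at the edge of the size asked, and ended without male A (-0.989) and within the narrow control set (-0.93). Within that set the layer 6 call ended as well. Layer 4 was higher by 0.54 (adjusted p = 0.00185), under the size of a call, and layer 2 at -0.24 did not pass the test (adjusted p = 0.113). Over all 10 areas deep layers were 3.18-fold lower than upper layers, a log2 change of -1.67 ± 0.10 (SE, adjusted p = 1.00e-10), where 0.885% of genes were called lower.

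This pattern belongs to the brightest of 3 probe sets that carry the symbol CD53, and the other two did not share it alike. The next, with a mean of 5.52, had group means with a correlation of 0.72 with those of the brightest, and its 2 highest groups were again layer 3 of OFC (6.72) and of DLPFC (6.71). Its layer 3 was higher by 0.58 (adjusted p = 1.10e-04) and its deep layers lower by 0.36 (adjusted p = 8.94e-04), both under the size of a call. The dimmest, MmugDNA.10747.1.S1_at with a mean of 5.33, had a correlation of -0.07 with the brightest. Its layer 3 was at -0.080 (adjusted p = 0.320) and its deep layers at 0.064 (adjusted p = 0.204). With the mean of the 3 probe sets layer 3 was higher by 0.81 and deep layers lower by 0.66, which passed the test and were not called. Which transcripts each probe set reads was not tested.

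**Figure D5:**
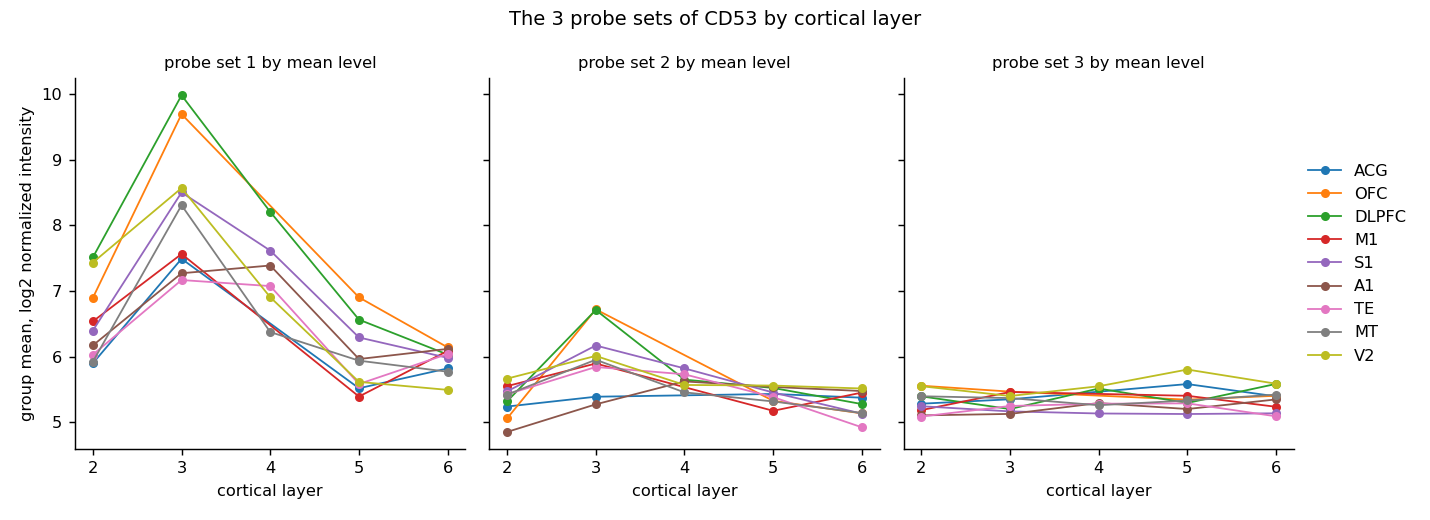
Group means of the 3 probe sets of CD53 (y axis, log2 normalized intensity) by cortical layer (x axis) in 9 areas, V1 with its divided layer 4 being left out; lines join the layers of an area and pass over layer 4 where there is none. Layer 3 peaks at 9.98 in DLPFC on probe set 1 and at 6.72 in OFC on probe set 2, and the lines of probe set 3 are nearly level.

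Neither the microglia nor the tetraspanins as a group shared the layer 3 peak. Of 18 microglia genes tested besides P2RY12 and CD53, none was called in layer 3; 2 were higher and 1 lower at an adjusted p under 0.05, where 16.1% of all genes were higher and 10.2% lower, and the median was 0.00084, against 0.018 for all genes. ITGAM was higher there by 0.24, CD68 by 0.16 and IRF8 lower by 0.29, all named after their values were seen. Of 30 tetraspanins 24 were measured, and of the 15 tested besides CD53 none was called in layer 3, with 1 higher and 4 lower at an adjusted p under 0.05. CD9, a tetraspanin of many cell types, was called in the reverse direction, with deep minus upper layers at 1.28 ± 0.06 (SE, adjusted p = 1.04e-11), where 1.24% of all genes were called higher. Averaged over 26 measured genes without P2RY12 and CD53, the microglia list lay between 5.66 and 5.98 in the 24 layer 3 arrays of the areas with all of layers 2 to 6, and between 5.60 and 6.14 in their 94 other arrays.

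Markers of other cells in layer 3 were mixed. Of 6 astrocyte genes 4 were higher at an adjusted p under 0.05 (median 0.18), of 6 endothelial genes 3 were higher (0.13), and of 6 neuronal genes 2 were higher and 1 lower (0.04), beside the 16.1% higher and 10.2% lower of all genes. The 5 tested genes of lymphocytes and blood lay between -0.06 and 0.04 and the 3 platelet genes between 0.03 and 0.05, short of the test in either direction. Of 4 border macrophage genes, 1 was higher, F13A1, by 0.45 ± 0.04 (SE, adjusted p = 1.38e-07), and 1 lower, the mannose receptor MRC1, by 0.13. The mean level of the 8 measured lymphocyte and blood genes lay between 4.40 and 5.41 in layer 3 and between 4.40 and 5.68 in the other layers, and that of the 7 measured border macrophage genes between 6.04 and 6.60 and between 5.88 and 6.65. The part of these cells in the CD53 peak was not tested.

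Across areas the fitted means of CD53 spanned 1.40 (adjusted p = 2.75e-06) and were called. DLPFC was highest, by 0.92 ± 0.15 (adjusted p = 5.40e-04), and OFC next, by 0.79 ± 0.15 (adjusted p = 9.26e-04), with ACG lower by 0.64, V1 by 0.54 and TE by 0.49, all under the size of a call. In pairs of areas, DLPFC was called above ACG (1.40), V1 (1.31) and TE (1.27), and OFC above ACG (1.29), V1 (1.20) and TE (1.16). The area call rests on the brightest probe set: the span was 0.59 on the mean of the 3, 0.37 on probe set 2 and 0.44 on probe set 3, none of them called. Without male B, DLPFC reached the size of a call against the rest (1.02). In the narrow control set of 6 areas, which has neither DLPFC nor OFC, the span was 0.79 and did not pass the test (adjusted p = 0.0539).

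V1 differed from the mean of the other areas in its deep layers. CD53 was lower there in layer 5 by 1.04 ± 0.30 (SE, adjusted p = 0.011) and in layer 6 by 1.21 ± 0.19 (adjusted p = 2.33e-05), both called. In layer 2 it was at 0.58 (adjusted p = 0.0583) and in layer 3 at -0.37 (adjusted p = 0.414). Deep minus upper layers in V1 was -2.70 ± 0.51 (SD, n = 4 animals). The same difference was close to this in V2, at -2.44 ± 0.12, and in DLPFC, at -2.45 ± 0.34. It was smallest in TE, at -0.79 ± 0.58 (SD, n = 4 each). The excess of V1 over the mean of the other areas was -1.19 ± 0.15 (SE, adjusted p = 0.0252), where 0.175% of genes were called lower. Leaving out any 1 of the 4 animals ended that call (-1.31 to -1.07). The layer 5 call was lost with the poly-A level as a covariate (-0.69, adjusted p = 0.318) and within the narrow set (-0.78, adjusted p = 0.066), and probe set 2 gave 0.29 in layer 5 and 0.10 in layer 6.

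Inside V1 the layers of CD53 spanned 3.18 (adjusted p = 2.83e-10). Layer 3 was called higher than the other layers of V1, by 2.00 ± 0.21, as were layer 4A, by 1.96, and layer 2, by 1.16, where 0.707%, 0.157% and 1.74% of genes were called higher. The layer 2 call ended without female E (0.887) and without male A (0.988). Layer 5 (-1.38) and layer 6 (-1.64) were called lower, as were 0.726% and 1.19% of genes (SE 0.21 each). The arrays of layer 4A read 7.83 in male A, 7.45 in male C, 8.87 in female D and 7.25 in female E, and those of the layer below it, 4B, 5.10, 5.30, 5.61 and 5.58 in the same order. The span was 0.59 on probe set 2 (adjusted p = 0.446) and 0.71 on probe set 3 (adjusted p = 0.157).

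In the hippocampus both genes were lower in DG than in the CA fields. P2RY12 read 7.29 in male A, 6.90 in male C, 7.26 in female D and 7.41 in female E in DG. Its arrays ran from 8.01 to 8.77 in CA1, from 7.55 to 8.68 in CA2 and from 7.80 to 8.65 in CA3, and none overlapped with DG. How many of all genes part DG from the CA fields in this way was not counted. The fields spanned 1.25 (adjusted p = 4.84e-04) and were called, as were 19.1% of genes, and DG was lower by 2.18-fold, a log2 change of -1.12 ± 0.17 (SE, adjusted p = 6.59e-05), where 4.82% of genes were called lower. Without male C the change was -0.96, with the mean of its probe sets -0.80 and on its dimmer probe set -0.47, each past the test and under the size of a call. CD53 in DG lay between 5.24 and 5.36, against 5.76 to 6.36 over the CA fields, with a change of -0.72 ± 0.10 (SE, adjusted p = 2.76e-05) that was not called; on probe set 2 DG stood higher, at 5.50 ± 0.08, than CA1, CA2 and CA3, at 5.25 to 5.38 (group means).

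Of 21 microglia genes tested in the hippocampus besides P2RY12 and CD53, 12 were lower and 1 higher in DG at an adjusted p under 0.05, where 29.8% of all genes were lower and 30.5% higher, and the median was -0.32 against -0.01. ITGAM was called lower (-1.22) and IRF8 higher, by 2.32, where 4.82% and 5.42% of all genes were. GNAI1, an inhibitory G protein subunit of the kind to which P2RY12 couples, was called lower in DG, by 1.79. The mean of the 26 other microglia genes lay between 5.58 and 5.69 in DG and between 5.74 and 6.03 in the CA fields. That of the 8 endothelial genes lay between 5.07 and 5.29 in DG and between 5.47 and 5.75 in the CA fields. That of the 3 measured myelin genes lay between 8.56 and 9.002 and between 9.10 and 11.1. None of these ranges overlapped, and how many of all genes part DG from the CA fields likewise was not counted. The part of endothelial and myelin cells in the result was not tested.

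In the LGN neither gene passed the test over the 3 divisions (adjusted p = 0.143 for P2RY12 and 0.498 for CD53), where 0.395% of genes were called. P2RY12 was highest in the koniocellular division at 8.73 ± 0.32, against 8.30 ± 0.36 in the parvocellular and 8.22 ± 0.36 in the magnocellular one, and CD53 read 6.46 ± 0.25, 6.25 ± 0.09 and 6.18 ± 0.28 in the same order (SD, n = 4 each). Their arrays overlapped.

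Among the whole structures, with 1 mean per animal in 4 animals, P2RY12 was lower in neocortex than in the LGN by 0.62 ± 0.16 (SE, adjusted p = 0.00568), and CD53 was higher in neocortex than in the hippocampus by 0.77 ± 0.11 (SE, adjusted p = 1.87e-04) and than in the LGN by 0.32 ± 0.11 (adjusted p = 0.0277). None of these reached the size of a call, which 18.1% of genes did over the 3 structures. The neocortex mean takes in the low areas V1 and V2. Over single arrays, P2RY12 averaged 6.395 in V1, 6.97 in V2 and 8.12 in the other 8 cortical areas, against 8.42 in the LGN. Of 21 other microglia genes tested, 2 were called lower in neocortex than in the LGN, SLC2A5 (-1.50) and TYROBP (-1.09), where 4.14% of all genes were.

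The sexes were compared over the 36 groups measured in all of male A, male C, female D and female E. P2RY12 had means of 7.24 in male A, 7.63 in male C, 7.59 in female D and 7.85 in female E, and CD53 of 6.30, 6.10, 6.71 and 6.52 in the same order. The female minus male difference was 0.29 ± 0.17 for P2RY12 (SE, adjusted p = 0.738) and 0.42 ± 0.11 for CD53 (adjusted p = 0.587), and neither passed the test. Limma called 0 of 10289 genes between the sexes, or 0%, and 725 had an unadjusted p under 0.05.

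In the control arrays, which entered no comparison, repeat arrays of a commercial whole brain RNA pool read P2RY12 at 7.99 ± 0.16 and CD53 at 6.89 ± 0.16 (SD over 15 arrays of 1 pool). The 9 control arrays of CA3 all carry the label of the same sample of male C, so that they stand for 1 animal and their SD is that of repeat runs. They read 8.29 ± 0.26 for P2RY12, and the experimental CA3 array of male C read 8.65. For CD53 they read 7.23 ± 0.17 and no lower than 6.98, while the experimental CA3 array of male C read 6.11 and those of the other 3 animals 5.85 to 6.18. The reason was not tested.

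Over the 57 group means, the genes whose levels were most like those of P2RY12 were CAPN11, a calpain protease (0.92), METTL14, a subunit of the RNA methyltransferase for N6-methyladenosine (0.88), BBOX1, the last enzyme of carnitine synthesis (0.88), the cyclic AMP responsive factor CREM (0.87), GALNT2 (0.85), AP3S1 (0.85), PACC1 (0.84) and SLC66A3 (0.84). C1QA, at 0.84, was the microglia gene nearest to these. The lowest correlations were those of IRF2BP1 (-0.82), the autophagosome protein MAP1LC3B (-0.80), MFHAS1 (-0.80) and EIF1B (-0.79). Measured over the deviations of the arrays from their group means, CAPN11 kept a correlation of 0.59 and C1QA one of 0.06.

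The genes most like CD53 were TNNI3K (0.75), LTBP1, which binds latent TGF-beta (0.69), METTL21A (0.67), KANK2 (0.66), the retinoic acid receptor RARB (0.65), F13A1, the A subunit of coagulation factor XIII (0.65), WFDC2 (0.64) and EMILIN3 (0.63). CA12, a carbonic anhydrase (-0.57), ACSL1 (-0.56), SH3PXD2A (-0.56) and PDIA4 (-0.55) were least like it. The deviations from group means gave 0.52 for TNNI3K and 0.02 for F13A1, which is also on the border macrophage list. The highest values for CD53 were thus below those for P2RY12.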

How the data were processed

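RNA of laser-captured tissue was amplified from 5 ng in 2 cycles and 10 ug of labelled cDNA were hybridised to the GeneChip Rhesus Macaque Genome Array, per the labels. The deposited values are log10 intensities, normalized by the authors with RMA within each amplification batch and then scaled per probe set on the whole brain controls, per the file headers; here they were multiplied by the log2 of 10. Of 52865 probe sets, 24969 carry 1 symbol, 361 several and 27535 none; a gene was read from its probe set with the highest mean. Precision is limited by how many arrays and animals there are.

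Linear models were fitted in R 4.3.3, using limma 3.58.1 and version 1.17.8 of data.table, over all genes whose mean exceeded the median of all probe sets, with the animal as a fixed block and Benjamini-Hochberg adjustment. Layer comparisons used animals and areas with every layer. Descriptions used Python 3.11.15, numpy 2.4.6, pandas 2.3.3 and matplotlib 3.10.9. The fits were also run on simulated arrays with known changes and no batch differences, so that run does not bear on the processing differences of V1 and V2. The block rests on the animal named in the labels, and arrays of 1 animal deviated together, as the correlations above give.

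The genes and lists were chosen with earlier results of these data known. Named were P2RY12 and CD53; up to 6 called list genes by size in a comparison; and, for each, the 8 genes of highest and 4 of lowest correlation, symbols starting with LOC passed over. Alternatives were no block, no filter, quantile normalization, the mean of a gene's probe sets, each other probe set, each animal left out, 1 control set, the poly-A covariate and, added after seeing the data, V2 left out, DLPFC and OFC left out, and areas with a missing layer kept. No sequence of these genes was used here.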

Additional observations from a re-analysis of the deposited data

Results flagged for a closer look

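In groups of 4 arrays, a single array stood far from the other 3 in 4 of 54 groups for P2RY12 (7.41%) and in 1 of 54 for CD53 (1.85%), and chance alone gives about 1 in 20 groups. For P2RY12, female E read 8.47 in layer 4 of S1 (the others 7.65 to 7.75), female D read 7.04 in layer 4B of V1 (5.61 to 5.64), female E read 7.16 in layer 4Ca of V1 (5.73 to 5.94), and male A read 5.51 in layer 6 of V2 (7.49 to 7.56). For CD53, female D read 5.47 in layer 6 of DLPFC (6.18 to 6.28). The deep minus upper difference of CD53 in V1, less that of the other areas, was -1.19 by the test of the difference itself (adjusted p = 0.0252), and it was 0.058 and 0.12 on the other two probe sets.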

How the results depend on the processing

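For P2RY12, 179 of 185 values of main results under alternatives kept the call or the lack of one. The 6 others were V1 in layer 3 at -0.84 and in layer 5 at -0.998 with the mean of its probe sets, V1 in layer 3 at -0.89 and in layer 5 at -0.92 with the poly-A covariate, and the span of the hippocampal fields at 0.86 with the mean of the probe sets and 0.52 on the dimmer one. For CD53, 184 of 214 did. On the mean of its 3 probe sets layer 3 gave 0.81, deep minus upper -0.66, the areas 0.59, V1 in layer 5 -0.14 and in layer 6 -0.48, and the V1 excess -0.34. On probe set 2 these were 0.58, -0.36, 0.37, 0.29, 0.10 and 0.058, with the layers at 0.80, the layers of V1 at 0.59 and layer 5 of V1 at 0.064. On probe set 3 they were -0.080, 0.064, 0.44, 0.33, -0.33 and 0.12, with the layers at 0.12, layers 5 and 6 at 0.037 and 0.065, the layers of V1 at 0.71, and layers 2, 3 and 5 of V1 at -0.20, -0.24 and 0.36. The narrow control set gave 0.79 for the areas and -0.78 for V1 in layer 5, and the poly-A covariate -0.69 there. With each animal left out, V1 in layer 5 lay between -1.11 and -0.97, its lowest size being without female D (adjusted p = 0.0337), and the V1 excess between -1.31 and -1.07. Layer 5 was at -0.93 and layer 6 at -0.79 within the narrow set. Apart from the alternative's own construction, the cause was not tested. Without the replicate block, without the filter, with quantile normalization, within the wide set, without V2, without DLPFC and OFC, with incomplete areas kept and without female F no call on either gene changed; without the block V1 gave -1.63 for P2RY12 and layer 3 1.92 for CD53.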
